A study of Mus musculus with 6 samples.

Results

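Oxidative phosphorylation is carried out in the inner mitochondrial membrane by 5 protein complexes. Complexes I to IV form the respiratory chain, which passes electrons from NADH and succinate to oxygen and pumps protons, and complex V, the ATP synthase, uses the proton gradient to make ATP. Most subunits are encoded in the nucleus and imported, and a small set is transcribed from the mitochondrial chromosome. Complex II is the only complex with no mitochondrially encoded subunit, so the other 4 are built from products of both genomes.

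The subunit genes were taken as the protein-coding rows of the deposited gene table named Nduf with A, B, C, S or V and a number, Sdha to Sdhd, Uqcr, Cox4 to Cox8, Atp5, Cyc1 or mt-. This gave 99 of 54532 rows, 86 on nuclear chromosomes and 13 on the mitochondrial chromosome. Ndufa4 was placed in complex IV, where its protein is found. Ndufa4l2, Cox7a2l and Atp5s matched by name although their products are not structural subunits. The name rule leaves out Ndufab1, Usmg5 and Ndufb1-ps.

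RNA-seq was done on GFP+ leukemia cells sorted from mouse bone marrow, with 3 libraries of *WT Phf6,RE9a* (*Phf6* fl/y, no Cre; replicates 1, 2 and 3) and 3 of *VC Phf6,RE9a* (*Vav1-Cre;Phf6* fl/y; replicates 11, 12 and 13). In both groups, fetal liver cells of male E14.5 embryos had received RUNX1-ETO9a (RE9a), a truncated leukemia fusion, with GFP from a retrovirus and were passed serially through male recipients. *Vav1-Cre* removes the floxed allele in the whole hematopoietic system, so the deletion preceded the fusion and was not limited to the leukemia. Mice were young adults. Nothing in the sources used here states whether the 3 libraries of a group came from separate leukemias, so p-values cover only the spread between these libraries.

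Total counts ranged from 15675358 to 16817994. *Phf6* fell from 64.2 ± 7.14 to 20.3 ± 2.37 CPM (counts scaled to the size of the library; mean ± SD, n = 3 each), a log2 fold change of -1.66 (SE 0.13, edgeR adjusted p = 9.32e-05), and the groups did not overlap. The table sums all exons of a gene, and which *Phf6* exons remain was not analysed here. Of 14169 genes with enough counts to test, 3047 (21.5%) were higher and 3213 (22.7%) lower in *VC Phf6,RE9a* at an adjusted p below 0.05. With library totals in place of TMM scaling the split was 4047 higher and 2476 lower, since the median of all genes moved up by 0.15 (log2). The cells differed in type markers as well. Of 8 markers of the leukemia and its progenitors, 3 rose (Mpo, Elane and Itgam) and 3 fell, and dropping single libraries ended the call of Itgam in 4 of 6 fits and of Mpo in 2. The stem cell and mast cell receptor Kit had a log2 fold change of -3.15 and the progenitor marker Cd34 of -4.63, and 3 of 4 mast cell markers were lower (the summed level of the 4 was 9213 to 13784 CPM in *WT Phf6,RE9a* and 1132 to 1602 in *VC Phf6,RE9a*). All 5 erythroid markers (1346 to 2064 against 4297 to 4867 CPM summed) and all 5 markers of granulocyte maturation (97.1 to 292.3 against 648.6 to 2489 CPM summed) were higher. The B cell gene Cd79a rose from 2 to 10 counts to 40 to 84, 1 of 4 macrophage genes rose (Cd68, 0.58, lost in 4 of 6 such fits), and 4 T cell genes summed to at most 2.95 CPM in any library. The part of these shifts in the subunit results was not tested, and in such bulk libraries fewer cells of a type and less RNA per cell cannot be told apart.

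The reads of the 2 genomes are not equally easy to assign. A block of mitochondrial sequence is present in the nucleus on chromosome 1, where the annotation lists unprocessed pseudogenes on the minus strand of GRCm38 between chr1:24611535-24612410 (Gm28439) and chr1:24615706-24616197 (Gm29216). The sequences below show the 2 situations. They are 60 transcript bases from GENCODE M21, 5′ to 3′, with capitals at bases that differ between gene and copy.

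mt-Co1, positions 1054 to 1113: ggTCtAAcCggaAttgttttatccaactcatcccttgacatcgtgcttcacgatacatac
Gm29216, same positions: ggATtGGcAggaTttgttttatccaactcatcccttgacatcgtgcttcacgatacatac
mt-Co2, positions 121 to 180: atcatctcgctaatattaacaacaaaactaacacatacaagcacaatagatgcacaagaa
Gm28661, same positions: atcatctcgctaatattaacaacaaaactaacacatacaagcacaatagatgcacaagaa

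The mt-Co1 transcript and the copy Gm29216 differed at 6 of 492 aligned bases, all at the edge of the copy (T1056A to A1066T, the mitochondrial base first, counted from the transcript's start). The mt-Co2 transcript was identical to Gm28661 over all 681 aligned bases. A read of 150 bases that lies wholly in such a stretch fits both rows. Windows were compared between annotated transcripts only, so a copied stretch without an annotated row was not seen. Of all 150-base windows, 99.8% of mt-Co3, 99.4% of mt-Co2 and of mt-Atp6, 98.0% of mt-Nd4l and 97.0% of mt-Nd3 also occurred in a nuclear copy, against 59.2% of mt-Nd4, 23.6% of mt-Co1 and none of the other 6.

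Nuclear-encoded subunits were mostly higher in *VC Phf6,RE9a*. Of 79 nuclear members with enough counts, 45 (57.0%) rose, against 21.5% of all genes tested, 1 fell (Ndufv3), and 33 did not pass. The median log2 fold change of the 79 was 0.39, against 0.01 over all genes tested. In 60 of them (75.9%) all 3 *VC Phf6,RE9a* libraries lay above all 3 *WT Phf6,RE9a* libraries, and in 1 below, where 28.9% and 28.4% of all genes tested did so. Most changes were modest: 5 members rose by at least 2-fold, and 9.95% of all genes tested did. *WT Phf6,RE9a* replicate 2 was the lowest of the 6 libraries for 66 of the 79 genes. Without it, 36 rose, 1 fell and the median was 0.31. With library totals, 59 rose, none fell and the median was 0.54, against 0.16 over all genes. The count fell by over 1.5 times without *VC Phf6,RE9a* replicate 11 (29 rose) or 13 (25 rose), and 25 of the 46 calls held in all 6 fits that each left out 1 library.

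**Figure D1:**
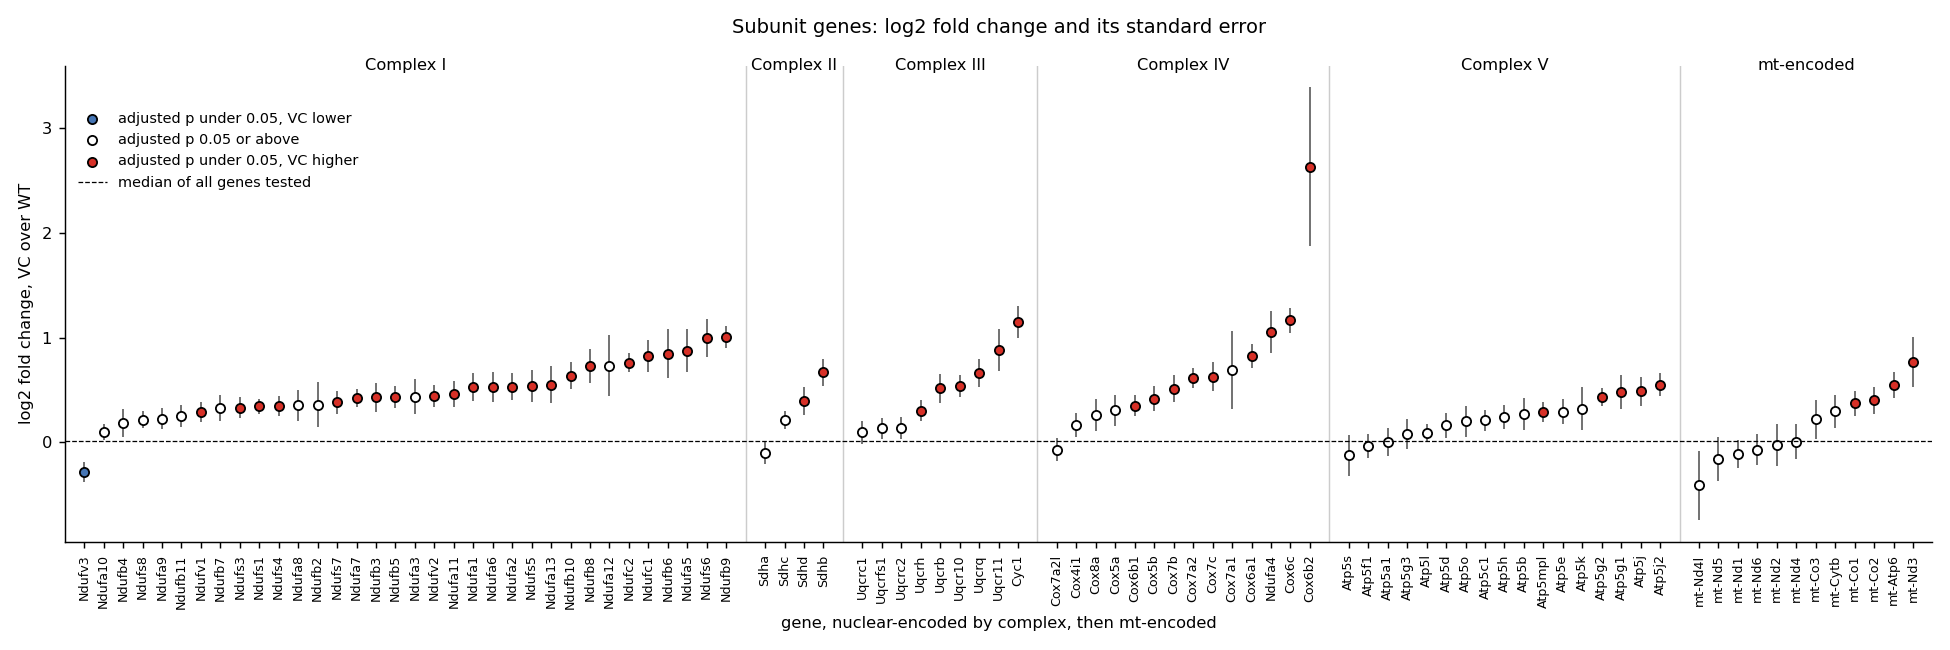
Log2 fold change (*VC Phf6,RE9a* over *WT Phf6,RE9a*) with its standard error for 78 of the 79 nuclear-encoded and the 12 mt-encoded members tested, ordered within each complex, n = 3 libraries per group. Filled points passed an adjusted p below 0.05, 45 of them nuclear-encoded and higher, while most mt-encoded genes of complex I lie at or below the dashed median of all genes.

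Complex I, the NADH dehydrogenase, had 35 nuclear members, of which 23 rose and 1 fell (median log2 fold change 0.43). Its 7 nuclear core subunits hold the flavin and the iron-sulfur clusters that carry the electrons, and the 28 accessory subunits surround this core. Of the core, 5 of 7 rose, with log2 fold changes up to 0.44. The accessory subunits reached higher: 18 of 28 rose and their median was 0.50.

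The largest increases in complex I were those of Ndufb9, Ndufs6 and Ndufa5. Ndufb9, an accessory subunit of the membrane arm at chr15:58933756-58939488, measured 17.8, 16.3 and 16.5 CPM in *WT Phf6,RE9a* and 33.7, 32.4 and 35.6 in *VC Phf6,RE9a* (log2 fold change 1.01, SE 0.11, adjusted p = 3.27e-04). The 2 groups were far apart, with little spread within either. Ndufs6, a zinc-binding accessory subunit at chr13:73319838-73328542, measured 22.2, 13.1 and 17.9 CPM against 34.3, 35.3 and 36.5 (log2 fold change 1.00, SE 0.18, adjusted p = 0.0039). Its *WT Phf6,RE9a* libraries were spread widely, and replicate 2 was lowest. Ndufa5, an accessory subunit of the matrix arm, measured 19.2, 10.8 and 17.1 CPM against 28.6, 29.0 and 28.8 (0.87, SE 0.20, adjusted p = 0.011). All 3 calls held whichever library was left out.

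Ndufv3, an accessory subunit of the NADH-oxidising module, was the exception. It measured 47.9, 44.8 and 51.4 CPM in *WT Phf6,RE9a* and 40.3, 37.1 and 41.2 in *VC Phf6,RE9a*, a log2 fold change of -0.28 (SE 0.10, adjusted p = 0.045). The groups did not overlap, but the call was kept only without *WT Phf6,RE9a* replicate 2 among the 6 leave-one-out fits. Under 4 other settings, DESeq2 among them, it also did not pass. In Ndufa12, *VC Phf6,RE9a* replicate 11 measured 33.1 CPM and the other two 15.1 and 16.9, against 12.1, 13.4 and 13.7, and the gene did not pass (adjusted p = 0.077). For this gene, chosen after its values were seen, 13.4% of 150-base windows also occur in another gene.

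Complex II, succinate dehydrogenase, links the tricarboxylic acid (TCA) cycle to the chain and has 4 subunits, all nuclear. Sdhb, the iron-sulfur subunit at chr4:140961203-140979193, measured 71.6, 52.4 and 69.2 CPM in *WT Phf6,RE9a* and 96.1, 107.8 and 103.1 in *VC Phf6,RE9a* (log2 fold change 0.67, SE 0.13, adjusted p = 0.0045). The call held in all 6 leave-one-out fits. Sdhd, a membrane anchor, measured 111.5, 82.4 and 118.1 CPM against 138.0, 131.1 and 140.6 (0.39, SE 0.13, adjusted p = 0.047). Its call was lost without *WT Phf6,RE9a* replicate 1 or any of the *VC Phf6,RE9a* replicates. Neither Sdha, the flavoprotein that oxidises succinate (-0.10, SE 0.11, adjusted p = 0.48), nor Sdhc, the other anchor (0.21, SE 0.09, adjusted p = 0.084), passed.

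Complex III, the cytochrome bc1 complex, oxidises ubiquinol and reduces cytochrome c. Of its 9 nuclear members 6 rose, with a median of 0.52. All 5 small subunits rose: Uqcr11 by 0.88, Uqcrq by 0.66, Uqcr10 by 0.54, Uqcrb by 0.52 and Uqcrh by 0.30 on the log2 scale. The 2 large core proteins Uqcrc1 (0.10) and Uqcrc2 (0.14) and the Rieske iron-sulfur protein Uqcrfs1 (0.14) did not pass, with adjusted p between 0.30 and 0.50. Cyc1, the cytochrome c1 that carries the heme at chr15:76343523-76346260, measured 99.8, 68.3 and 102.1 CPM in *WT Phf6,RE9a* and 202.5, 202.0 and 193.8 in *VC Phf6,RE9a*. This was a log2 fold change of 1.15 (SE 0.15, adjusted p = 8.34e-04), with no overlap. Uqcr11, the smallest subunit, measured 44.2, 24.5 and 30.2 CPM against 57.4, 63.6 and 60.8 (SE 0.20, adjusted p = 0.0094). For Cyc1, Uqcr11, Uqcrq and Uqcr10 the calls held in all 6 leave-one-out fits, Uqcrb lost its call without *VC Phf6,RE9a* replicate 11 or 13, and Uqcrh kept it only without *WT Phf6,RE9a* replicate 1.

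**Figure D2:**
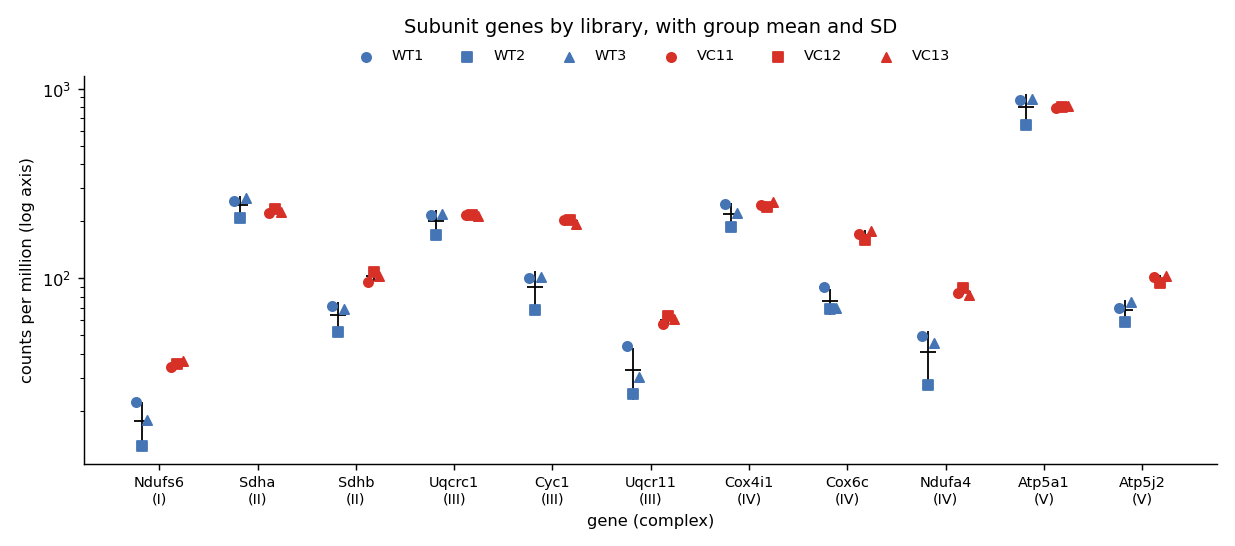
CPM on a log axis in each library for 11 subunit genes, with complex in brackets, blue for *WT Phf6,RE9a* and red for *VC Phf6,RE9a*, and black bars for mean ± SD (n = 3). Sdha, Uqcrc1, Cox4i1 and Atp5a1 overlap between groups, while Ndufs6, Sdhb, Cyc1, Uqcr11, Cox6c, Ndufa4 and Atp5j2 do not.

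Complex IV, cytochrome c oxidase, hands the electrons to oxygen. Its 14 tested nuclear members include 9 that rose, with a median of 0.56. The nuclear subunits wrap the catalytic core, which is mt-encoded, and several exist as isoforms of different tissues. Cox6c at chr15:35925886-35938246 measured 89.6, 68.8 and 69.4 CPM in *WT Phf6,RE9a* and 171.9, 160.1 and 178.6 in *VC Phf6,RE9a* (log2 fold change 1.16, SE 0.12, adjusted p = 2.89e-04). Ndufa4 at chr6:11900292-11907497 measured 49.4, 27.5 and 45.7 CPM against 83.7, 88.5 and 82.2 (1.05, SE 0.20, adjusted p = 0.0043). Both genes were separated between groups, and both calls held in all 6 leave-one-out fits. Cox4i1, needed early in assembly, did not pass (0.16, SE 0.11, adjusted p = 0.27), nor did Cox8a (0.26, SE 0.16, adjusted p = 0.21).

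Isoforms were compared per length, in FPKM (fragments scaled to gene length and library size). The gene length is the deposited one, which can be longer than a transcript of the gene. The ubiquitous or liver-type form was the higher in each set in both groups. Cox6a1 had 219 ± 27.8 FPKM in *WT Phf6,RE9a* libraries against 385 ± 23.7 in *VC Phf6,RE9a* (mean ± SD, n = 3), and the heart and muscle form Cox6a2 had at most 10 counts in any library. Cox7a2 had 49.4 ± 3.60 and 75.0 ± 5.54 FPKM, above the muscle form Cox7a1 with 4.06 ± 1.67 and 6.52 ± 1.10. On counts, Cox6a1 (0.82, SE 0.11, adjusted p = 9.51e-04) and Cox7a2 (0.61, SE 0.10, adjusted p = 0.0021) rose, and Cox7a1 did not pass (0.69, SE 0.37, adjusted p = 0.17). Cox4i2, the hypoxia-linked form, had 0 to 5 counts, Cox8b and Ndufa4l2 had at most 2, and Cox7b2 and Cox8c had 0 in every library. None of these was tested, while Cox7b rose (0.51, SE 0.13, adjusted p = 0.014).

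The testis form Cox6b2 (chr7:4751792-4753094) gave the largest fold change of all members from few counts. It had 10, 14 and 115 counts in *WT Phf6,RE9a* and 232, 372 and 308 in *VC Phf6,RE9a* (log2 fold change 2.63, SE 0.76, adjusted p = 0.025). *WT Phf6,RE9a* replicate 3 stood well above the other two of its group, although the groups did not overlap. Without that replicate the log2 fold change was 4.47. The call was lost without *WT Phf6,RE9a* replicate 2 or *VC Phf6,RE9a* replicate 12 or 13. Even in *VC Phf6,RE9a*, at 15.9 ± 3.62 FPKM, it was far below the somatic form Cox6b1 at 159 ± 6.57 FPKM. Cox6b1 rose by 0.35 on the log2 scale (SE 0.10, adjusted p = 0.025), a call lost without any of the *VC Phf6,RE9a* replicates.

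Complex V had the lowest share of calls. Of its 17 tested nuclear members 5 rose (29.4%, near the 21.5% of all genes tested), and the median was 0.24. The 5 subunits of the catalytic F1 head (Atp5a1, Atp5b, Atp5c1, Atp5d and Atp5e) ranged from 0.00 to 0.29, and none passed. Atp5a1, the alpha subunit, measured 870.3, 643.6 and 885.9 CPM against 792.6, 804.4 and 807.1, so that the *VC Phf6,RE9a* libraries lay inside the *WT Phf6,RE9a* range (0.00, SE 0.14, adjusted p = 0.99). Atp5j2, a subunit of the membrane part at chr5:145183698-145192062, had the largest increase. It measured 70.2, 58.6 and 75.2 CPM against 101.3, 95.0 and 102.6 (0.55, SE 0.11, adjusted p = 0.0047), and its call held in all 6 leave-one-out fits. Atp5j, of the peripheral stalk, rose by 0.49 (SE 0.14, adjusted p = 0.023). This call was lost without *WT Phf6,RE9a* replicate 3 or *VC Phf6,RE9a* replicate 11 or 13.

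The c-ring, which turns as protons pass, is made of 1 protein encoded by 3 genes. Atp5g2 rose by 0.44 (SE 0.09, adjusted p = 0.0056) and Atp5g1 by 0.48 (SE 0.16, adjusted p = 0.044), and Atp5g3 did not pass (0.08, SE 0.14, adjusted p = 0.67). Per length, Atp5g2 (88.5 ± 6.98 FPKM in *WT Phf6,RE9a*, 119 ± 4.40 in *VC Phf6,RE9a*) and Atp5g3 (80.5 ± 15.6 and 84.7 ± 2.25) were both above Atp5g1 (10.9 ± 2.53 and 15.1 ± 0.53). These FPKM rest on deposited gene lengths of 1675 bases for Atp5g2, 2181 for Atp5g3 and 4912 for Atp5g1. The size of the gap to Atp5g1 depends on those lengths. Mean CPM, which ignores length, was also lowest for Atp5g1, at 53.7 and 75.0 with the groups in the same order. It was 149 and 201 for Atp5g2, and 176 and 187 for Atp5g3. The call of Atp5g2 held in all 6 leave-one-out fits, and Atp5g1 kept its call only without *WT Phf6,RE9a* replicate 2 or 3. Of the 150-base windows of Atp5g2, 33.1% also occur in another gene, as do 44.6% of those of Atp5l. A second Atp5o row (ENSMUSG00000116933) had 0 counts in every library, and the expressed row (ENSMUSG00000022956) did not pass (0.20, SE 0.15, adjusted p = 0.32).

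Fewer of the mt-encoded subunits passed. Of 12 tested, 4 rose (33.3%, against 21.5% of all genes tested), none fell by edgeR (0 at an unadjusted p below 0.05, and 0 by DESeq2), and the median log2 fold change was 0.11. Of the 5 with an annotated nuclear copy over nearly their whole length, 3 rose and the median was 0.40. Of the 7 tested without such a copy, 1 rose (mt-Co1, 14.3%) and the median was -0.02. These call counts are small. Leaving out any *VC Phf6,RE9a* replicate left 1 call and leaving out *WT Phf6,RE9a* replicate 3 left 2, and of the 4 genes mt-Atp6 alone kept its call in all 6 fits. DESeq2 called 2.

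mt-Co1, the catalytic subunit of complex IV at chrMT:5328-6872, supplied 40.6% to 53.0% of all mt-encoded counts per library. It measured 5911, 5551 and 5560 CPM in *WT Phf6,RE9a* and 7442, 7305 and 7302 in *VC Phf6,RE9a*. The groups were clearly apart, with a log2 fold change of 0.37 (SE 0.12, adjusted p = 0.035). Its call was lost without *WT Phf6,RE9a* replicate 3 or any *VC Phf6,RE9a* replicate, with log2 fold changes of 0.35 to 0.40 across the 6 fits. The apocytochrome mt-Cytb of complex III measured 1744, 1463 and 2181 CPM against 2338, 2126 and 2158, and these groups overlapped (0.30, SE 0.16, adjusted p = 0.16).

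The mt-encoded complex I subunits form its proton-pumping membrane arm. The 5 with at least 3250 counts in every library had log2 fold changes near 0 and did not pass: mt-Nd1 (-0.11), mt-Nd2 (-0.02), mt-Nd4 (0.01), mt-Nd5 (-0.16) and mt-Nd6 (-0.07), with SE from 0.13 to 0.21. With library totals in place of TMM, mt-Nd1, mt-Nd2 and mt-Nd6 turned positive (0.03, 0.12 and 0.07) and did not pass either. *WT Phf6,RE9a* replicate 3 was the highest library for all 5. For mt-Nd5 it measured 1661 CPM, against 1023 and 942 in the other two and 1061, 1085 and 1101 in *VC Phf6,RE9a*. The nuclear complex I members thus had a median of 0.43 and the mt-encoded ones of -0.07. This difference between the 2 sets was not tested.

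The other mt-encoded rows, apart from mt-Atp8, are those with an annotated nuclear copy over nearly their whole length. mt-Atp6, subunit a of complex V, measured 16.3, 17.3 and 16.6 CPM against 26.9, 22.3 and 23.96 (0.55, SE 0.12, adjusted p = 0.0094). mt-Co2, the subunit that takes electrons from cytochrome c, measured 32.5, 28.3 and 24.05 CPM against 38.4, 35.1 and 38.6 (0.40, SE 0.13, adjusted p = 0.038). mt-Nd3 had 32, 37 and 37 counts against 63, 72 and 62 (0.76, SE 0.24, adjusted p = 0.034). These 3 sets did not overlap between groups, whereas mt-Co3 (0.22, adjusted p = 0.38) and mt-Nd4l (-0.41, adjusted p = 0.35) overlapped and did not pass. In fits with 1 library left out, mt-Co2 kept its call only without *WT Phf6,RE9a* replicate 1 and mt-Nd3 only without *WT Phf6,RE9a* replicate 2.

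Their levels per length were far below those of the other mt-encoded genes except mt-Atp8. mt-Co1 had 3566 to 4762 FPKM and mt-Nd4 468 to 721 FPKM, while mt-Co2 had 34.8 to 55.5, mt-Atp6 23.9 to 39.1 and mt-Nd3 5.97 to 11.97 FPKM. These genes are all read from the same strand of the mitochondrial chromosome, which is transcribed as a long precursor. The rows of the nuclear copies had 262 to 456 counts in Gm10925, against 251 to 457 in mt-Atp6, and 215 to 488 in Gm28661, against 398 to 652 in mt-Co2. Gm28438 had 15 to 21 counts, against 32 to 72 in mt-Nd3. Per library, the mt row had 0.82 to 1.05 times the counts of its copy for mt-Atp6, 2.13 to 3.60 times for mt-Nd3, and 114.2 to 190.8 times for mt-Nd4, whose copy is partial. How the authors treated reads that fit both places is not given in the sources used here. With each copy's counts added to its mt row, an alternative chosen after the data were seen, mt-Co2 (0.47) and mt-Atp6 (0.50) kept their calls, and mt-Nd3 (0.61, adjusted p = 0.053) did not. mt-Atp8, which overlaps mt-Atp6, shared no window with an annotated transcript, had 0 to 7 counts per library and was not tested. It starts at chrMT:7766, between the end of mt-Co2 (7696) and the start of mt-Atp6 (7927). The copies of those genes are at chr1:24614885-24615565 and chr1:24613974-24614651, and the sequence between these copies was not compared.

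**Figure D3:**
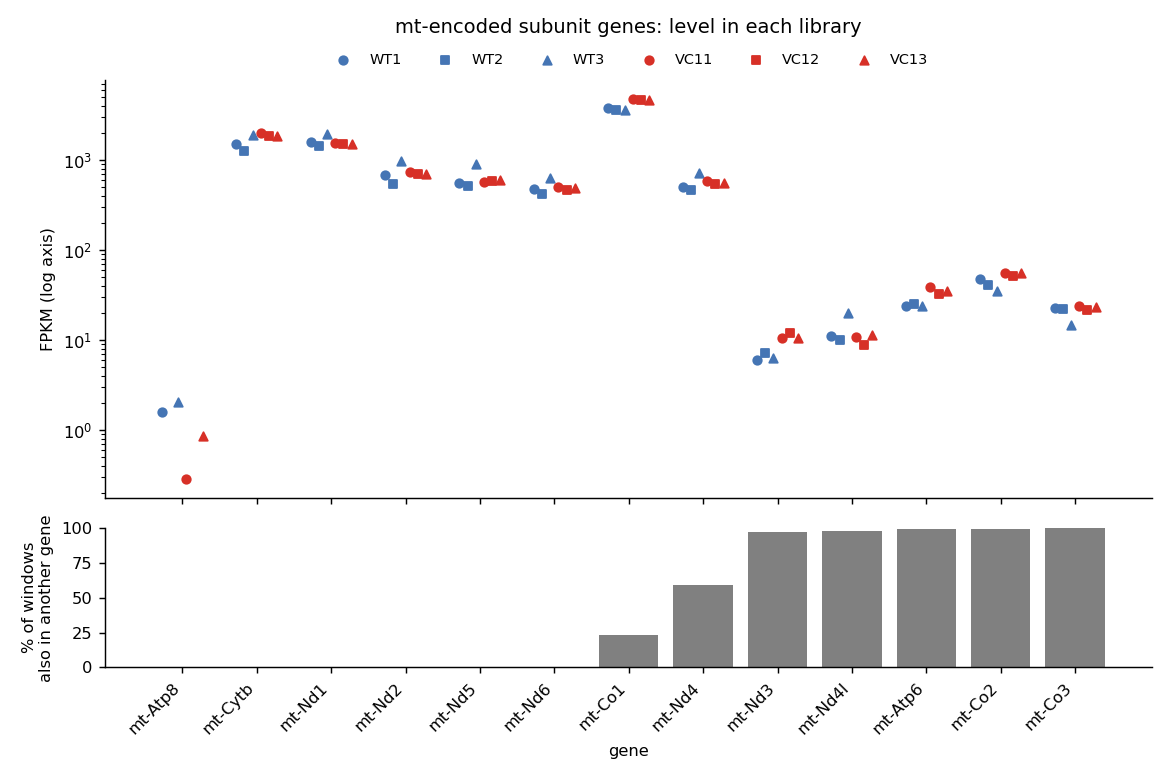
Top, FPKM on a log axis of the 13 mt-encoded genes in each library, blue for *WT Phf6,RE9a* and red for *VC Phf6,RE9a* (values of 0, 2 libraries of mt-Atp8, are not drawn). Bottom, percent of 150-base windows of each transcript also present in another gene; the 5 genes at 97.0% to 99.8% have the lowest FPKM apart from mt-Atp8.

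Summed over members, both genomes were higher in *VC Phf6,RE9a*. Nuclear-encoded members took 0.724%, 0.576% and 0.762% of all counts in *WT Phf6,RE9a* and 0.928%, 0.950% and 0.953% in *VC Phf6,RE9a*. The mt-encoded members took 1.09%, 1.02% and 1.36% against 1.49%, 1.47% and 1.46%. Neither share overlapped between the groups, and without mt-Co1, a setting added after the data were seen, the mt-encoded share did (0.618% ± 0.16 against 0.699% ± 0.012). With TMM scaling the mt-encoded sums were close, at 10837 to 13680 CPM in *WT Phf6,RE9a* and 13782 to 14298 in *VC Phf6,RE9a*. Summed FPKM of the mt-encoded members overlapped, at 8321 to 10717 against 10474 to 10880. The ratio of mt-encoded to nuclear-encoded counts was 1.51, 1.77 and 1.78 in *WT Phf6,RE9a* and 1.60, 1.55 and 1.53 in *VC Phf6,RE9a*. The *VC Phf6,RE9a* values lay within the *WT Phf6,RE9a* range, and the difference of the means was -0.13. The 3 *VC Phf6,RE9a* libraries had nuclear-encoded sums of 8891 to 9070 CPM and granulocyte marker sums of 648.6 to 2489 CPM. The part of these markers in the sums was not tested.

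**Figure D4:**
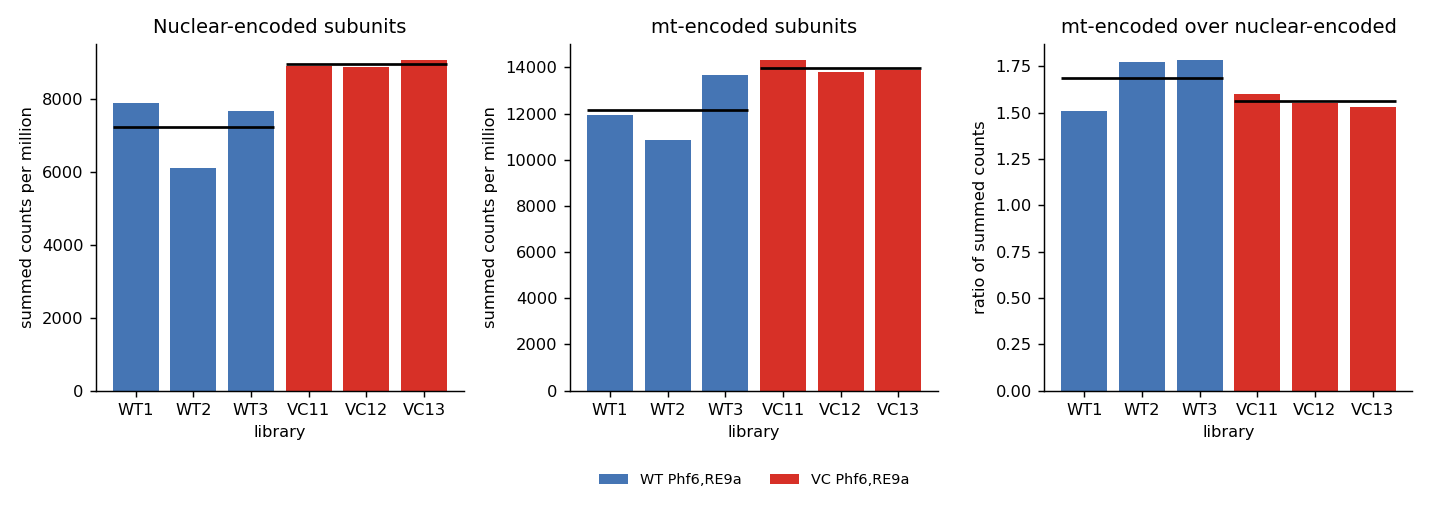
Summed CPM of nuclear-encoded (left) and mt-encoded members (middle), and the ratio of their summed counts (right), in each library, with lines at group means (n = 3). The nuclear-encoded sum is 6115 to 7892 CPM in *WT Phf6,RE9a* and 8891 to 9070 in *VC Phf6,RE9a*, and the ratio overlaps.

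Some increases moved with the chromosome on which a gene lies. The 451 tested protein-coding genes of chromosome 15 had a median log2 fold change of 0.62, and 68.3% of them were higher in *VC Phf6,RE9a*. The 386 of chromosome 14 had a median of -0.80, and medians of the 18 other chromosomes ranged from -0.16 to 0.11. All 5 members on chromosome 15 rose: Cox6c, Cyc1, Ndufb9, Ndufa6 and Atp5g2. Relative to the chromosome's median they stood at 0.55, 0.53, 0.39, -0.09 and -0.18. No member lies on chromosome 14. Of the 74 tested nuclear members elsewhere, 40 rose (54.1%) and the median was 0.36, in a count added after the data were seen. The part of chromosome 15 in the values of its 5 members was not tested.

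**Figure D5:**
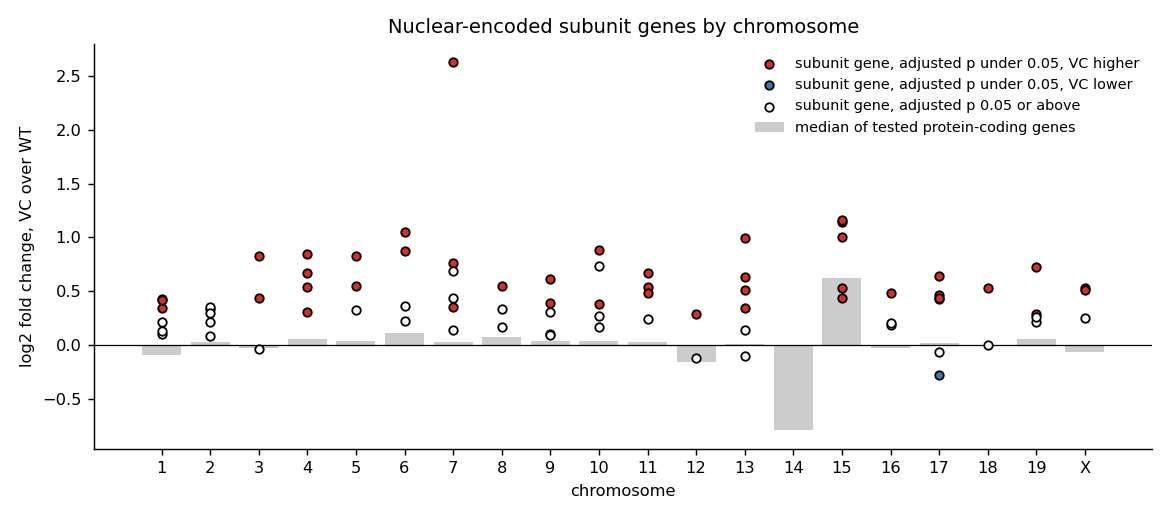
Log2 fold change (*VC Phf6,RE9a* over *WT Phf6,RE9a*) of the 79 tested nuclear-encoded members by chromosome (points), over the median of all tested protein-coding genes of that chromosome (grey bars). Chromosome 15 has a median of 0.62 and 5 members that all rose, and members rose on most other chromosomes with medians near 0.

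Subunit genes are short, and short genes were higher in general. In the shortest sixth of tested protein-coding genes (up to 2193 bases), 28.2% were higher in *VC Phf6,RE9a* with a median of 0.18, against 19.6% and -0.11 in the longest. Within that sixth, 35 of 56 members (62.5%) rose, with a median of 0.44. Among the 23 longer members 10 rose and the median was 0.29, where 22.9% of the longer protein-coding genes were higher. Length here is the deposited gene length, which can exceed that of a gene's transcripts. The part of gene length in the members' values was not tested.

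Promoters of the nuclear members were compared with those of all genes. RefSeq windows from 250 bases before to 50 after the start (GRCm38.p6) matched 68 of the 86 nuclear rows. Rows without a window include Cox6c (log2 fold change 1.16), Cyc1 (1.15), Ndufb9 (1.01) and Uqcrq (0.66). These members rose but are not in the motif counts. Both strands were searched. The set of all genes includes genes with too few counts to test here, and no comparison with the tested genes alone was made. The binding motif of nuclear respiratory factor NRF1 (GCGC, then A, any base and again GCGC) occurred in 25.0% of the 68, against 5.2% of the promoters of all 27025 genes. The ETS family motif (CCGGAAG) occurred in 23.5% against 9.9%, that of YY1 (ATGGCGG) in 14.7% against 4.7% and that of estrogen-related receptors (AAGGTCA) in 11.8% against 5.4%. NFY (CCAAT, 44.1% against 41.1%) and the E-box (CACGTG, 8.8% against 8.1%) were near the share of all genes, and the RUNX motif (TGTGGTT) occurred in 1 member (1.5% against 6.1%). The ATGGCGG motif can hold the start codon.

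Motifs were found in members that rose and in others. NRF1 was in 8 of 37 that rose and 9 of 29 tested that did not, ETS in 9 and 7, YY1 in 8 and 2, and AAGGTCA in 2 and 6. These counts are a description with no test. The 3 promoters below belong to members with large increases outside chromosome 15, and they show that such members need not share a motif. Motif letters are in capitals, on either strand.

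Ndufs6, chr13:73328433-73328732, minus strand, with CCAAT and NRF1 (each as its reverse complement) and YY1 motifs: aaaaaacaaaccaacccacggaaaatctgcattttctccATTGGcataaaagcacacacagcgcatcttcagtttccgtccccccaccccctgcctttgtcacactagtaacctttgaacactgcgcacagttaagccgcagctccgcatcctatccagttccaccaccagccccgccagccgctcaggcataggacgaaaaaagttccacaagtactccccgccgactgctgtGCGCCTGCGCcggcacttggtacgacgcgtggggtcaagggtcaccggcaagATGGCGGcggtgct
Uqcr11, chr10:80406772-80407071, minus strand, with RUNX (as its reverse complement) and ETS motifs: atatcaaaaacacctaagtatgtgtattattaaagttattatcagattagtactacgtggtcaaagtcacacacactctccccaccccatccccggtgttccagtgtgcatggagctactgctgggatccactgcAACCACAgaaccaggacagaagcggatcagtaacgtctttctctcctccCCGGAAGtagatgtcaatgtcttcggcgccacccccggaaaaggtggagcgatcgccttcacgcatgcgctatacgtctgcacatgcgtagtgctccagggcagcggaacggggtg
Ndufa4, chr6:11907401-11907700, minus strand, with none of the 7 motifs: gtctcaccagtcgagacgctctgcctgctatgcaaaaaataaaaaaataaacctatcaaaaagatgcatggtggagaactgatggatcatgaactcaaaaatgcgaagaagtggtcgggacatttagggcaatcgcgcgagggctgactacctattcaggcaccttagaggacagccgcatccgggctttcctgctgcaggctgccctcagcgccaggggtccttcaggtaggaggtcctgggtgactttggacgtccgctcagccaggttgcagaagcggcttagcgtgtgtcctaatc

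Of 11 tested regulators of mitochondrial biogenesis 4 rose (36.4%, against 21.5% of all genes tested) and none fell (median 0.14). Pprc1, a coactivator related to PGC-1, rose by 0.48 (SE 0.08, adjusted p = 0.0026) and Myc by 1.53 (SE 0.26, adjusted p = 0.0026), and Myc lies on chromosome 15, as does Sp1 (0.27, SE 0.09, adjusted p = 0.049, lost in 5 of 6 leave-one-out fits). Nrf1, chosen after its values were seen, had 0.25 (SE 0.09, adjusted p = 0.0496). The other 7 tested did not pass: Tfb2m (0.15), Ppargc1b (0.14), Gabpb2 (0.05), Gabpb1 (0.00), Yy1 (-0.02), Esrra (-0.03) and Gabpa (-0.09).

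Among the factors that build the complexes, 2 of 16 for complex I (12.5%), 1 of 4 for complex II (25.0%), 1 of 6 for complex III (16.7%) and 4 of 20 for complex IV rose, shares near the 21.5% of all genes tested. None, none, none and 2 fell. The complex I factors Dmac1 (0.58, adjusted p = 0.0068) and Ndufaf4 (0.56, adjusted p = 0.039) rose, and Tmem126b did not pass (0.46, adjusted p = 0.058). Sdhaf2, which adds the flavin to Sdha, rose by 0.35 (adjusted p = 0.0079), and Uqcc2, needed to make cytochrome b, by 0.53 (adjusted p = 0.018). Cox14, on chromosome 15, rose by 1.01 (adjusted p = 0.0020) and Coa3 by 0.47 (adjusted p = 0.021), and Cmc1 fell by 0.59 on the log2 scale (adjusted p = 0.018); all 3 act on newly made mt-Co1. Among 5 complex V factors, the inhibitor Atpif1 rose by 1.18 (adjusted p = 7.98e-04), the assembly chaperone Atpaf1 fell by 0.46 (adjusted p = 0.039), and the insertase Oxa1l, on chromosome 14, fell by 0.69 (adjusted p = 0.0012). Leaving out 1 library ended the calls of Ndufaf4 in 5 of 6 fits, Atpaf1 in 4, Coa3 in 3, and Uqcc2 and Cmc1 in 2.

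Of 77 tested mitochondrial ribosomal protein genes, 30 rose (39.0%, against 21.5% of all genes tested) and 1 fell, with a median of 0.32. Mrpl13, on chromosome 15, rose by 1.24 (SE 0.11, adjusted p = 1.62e-04), Mrpl51 by 0.88 and Mrpl20 by 0.84. Of 15 genes for transcription and replication of the mitochondrial chromosome, 5 rose (33.3%) and none fell (median 0.31). The polymerase subunit Polg2 rose by 1.04 (SE 0.10, adjusted p = 2.47e-04), the nuclease Mgme1 by 0.89 (SE 0.15, adjusted p = 0.0024) and the helicase Twnk by 0.63 (SE 0.18, adjusted p = 0.025, lost in 5 of 6 leave-one-out fits). Of 17 genes for processing of mitochondrial RNA 5 rose (29.4%), led by Pnpt1 (0.55), Ptcd3 (0.51) and Fastkd5 (1.03, lost without *VC Phf6,RE9a* replicate 12). The mitochondrial rRNA and tRNA rows had 6 of 24 tested and none passed (0 at an unadjusted p below 0.05), with a median of -0.15.

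Pathways that feed the chain gave few calls. Of 13 TCA cycle genes 2 rose and 2 fell. Fh1 fell by 0.46 on the log2 scale (SE 0.08, adjusted p = 0.0031) and Sucla2, on chromosome 14, fell by 0.53 (SE 0.13, adjusted p = 0.013, lost without *VC Phf6,RE9a* replicate 13). Of 15 genes for ubiquinone and other electron carriers, Coq6 (0.49, adjusted p = 0.0081) and Etfdh (0.47, adjusted p = 0.021, lost without *VC Phf6,RE9a* replicate 11 or 12) rose and Coq8a (-1.29, adjusted p = 0.0069) fell. Cytochrome c itself, Cycs, which links complexes III and IV, did not pass (0.35, SE 0.16, adjusted p = 0.10).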

How the data were processed

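The deposited table holds raw counts per gene and FPKM for each of 6 libraries. The authors isolated RNA with Trizol, prepared TruSeq libraries and sequenced them in paired-end mode; counter, annotation and strandedness are not given in the sources used here. The submitters' processing notes list Bowtie 0.12.0 and mm8, whereas start and end of 93 of 99 members equalled GENCODE M21 (GRCm38), so coordinates are given as GRCm38. The FPKM were computed by the authors and were used as deposited. The table also holds the authors' fold changes and p-values between the groups, which were not used.

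Counts were tested in R 4.3.3 with edgeR 4.0.16 (quasi-likelihood test, filterByExpr with its default minimum of 10 counts, TMM scaling, Benjamini-Hochberg adjustment over 14169 genes, threshold 0.05). All edgeR adjusted p in the text are from this test, CPM are TMM-scaled, and depth (15675358 to 16817994 counts per library) limits low genes. With 3 libraries against 3, an exact permutation test of a single value cannot go below 0.1, so none was used. DESeq2 1.42.0 and limma 3.58.1 on log2(FPKM + 1) were alternatives. The edgeR step was tested on simulated counts.

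Genes named are *Phf6*, all mt-encoded members, the 3 largest significant changes each way per complex, isoform sets, untested members, the 3 smallest p per gene list, and marker genes. Members and lists were chosen with earlier results of these data known. Transcript windows and promoters came from GENCODE M21 and RefSeq. Some genes that this rule names are not reported here.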

Additional observations from a re-analysis of the deposited data

Results flagged for a closer look

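Some rows outside the name rule carried signal above the level in *WT Phf6,RE9a*. Usmg5, a small membrane subunit of the ATP synthase that the naming rule misses, rose by 0.52 on the log2 scale (SE 0.12, edgeR adjusted p = 0.0088) and did not overlap between groups. Ndufb1-ps, a row of the complex I subunit family that the table does not list as protein-coding, rose by 0.44 (SE 0.10, edgeR adjusted p = 0.0080), also with no overlap. Ndufab1, likewise outside the rule, did not pass (0.32, SE 0.16, edgeR adjusted p = 0.14). The chromosome 1 copies of mt-Co2 and mt-Atp6 rose as well, Gm28661 by 0.58 (SE 0.19, edgeR adjusted p = 0.041) and Gm10925 by 0.45 (SE 0.14, edgeR adjusted p = 0.030). The copies Gm29216 (0.39), Gm28439 (0.25), Gm10222 (0.22), Gm28438 (0.19) and Gm28437 (0.07) did not pass, with edgeR adjusted p from 0.080 to 0.79. Of all genes tested, 21.5% rose. Gm28661 and Gm10925 share nearly all 150-base windows with their mt-encoded genes, so their values and those of the mt rows are not independent.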

How the results depend on the processing

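No paired analysis was possible because the 2 groups share no replicate number (1 to 3 and 11 to 13). The nuclear-encoded count of 45 higher became 20 at an adjusted p below 0.01 and 5 at 2-fold or more; the 4 mt-encoded became 1 and 0, and 2 without a count filter and 2 by DESeq2. The 1 lower nuclear-encoded member became 0 with library totals, without a filter, with at least 10 counts in every library, by DESeq2, at 0.01 and at 2-fold. Leaving out 1 library gave 25 to 45 nuclear-encoded higher and 0 to 1 lower, 1 to 3 mt-encoded higher and 0 lower, medians of 0.31 to 0.44 and 0.02 to 0.23, mt-encoded share differences of 0.25 to 0.42 percentage points and ratio differences of -0.216 to -0.080. Library totals in place of TMM moved the median of all genes by 0.15 (log2), from 3047 higher and 3213 lower to 4047 and 2476, and gave 59 nuclear-encoded higher with a median of 0.54 and 4 mt-encoded with 0.26. The share difference of 0.32 points became 0.665 on FPKM and 0.081 without mt-Co1, and the ratio difference of -0.13 became -0.32 on FPKM; the cause was not tested. Low counts limit mt-Nd3, Cox7a1 and the untested members, and 97.0% of the 150-base windows of mt-Nd3 also occur in a nuclear copy.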
